A study of Homo sapiens with 19 samples.

Results

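The genes followed here are 9 scavenger receptors of macrophages, MARCO, MSR1, COLEC12, CD36, SCARB1, OLR1, STAB1, CD163 and MRC1, chosen by name. They were read by 16 of the 50238 probes on the array, and made up 9 of its 31033 gene names. THP-1, a monocytic line grown from a human leukemia, was turned into macrophage-like cells with 30 nM PMA (phorbol myristate acetate), washed and rested. The cells were then left untreated (UT) or given 0.1 mM vitamin C (vit C), and were harvested 8, 24, 48 and 96 h later. UT and vit C-treated cells had all received PMA and came from 1 line, so replicates are flasks of that line and the p-values measure the spread between such flasks only. UT cells gave 2, 3, 2 and 3 one-colour arrays at the 4 times, and vit C-treated cells gave 3, 2, 2 and 2.

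Scavenger receptors are cell surface proteins that bind altered lipoproteins, bacterial wall material, dying cells and other spent ligands and carry them into the cell. MSR1 (SR-A), MARCO and COLEC12 (SRCL) are the class A receptors among the 9, trimers with a collagen-like stalk. CD36 and SCARB1 (SR-BI) are class B receptors for fatty acids and lipoproteins. OLR1 (LOX-1) takes up oxidised LDL, STAB1 takes up acetylated LDL and matrix fragments, CD163 takes up haemoglobin bound to haptoglobin, and MRC1 (CD206) binds mannose-bearing glycoproteins. Macrophages of different tissues carry different sets of these receptors, and several are used as markers of macrophage state.

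A level below is the log2 of the processed spot signal minus the 75th percentile of its array, and levels of different genes are not compared. Of the 9 genes, 7 had a probe well above background on all 19 arrays by the scanner software's mark. COLEC12 was above background on the 96 h arrays only, and MRC1 on none. Where a gene had several probes, the brightest one gives its value. The probes of MARCO, STAB1 and COLEC12, the 3 genes called higher with vit C at 1 time or more, are shown 5′ to 3′, since a level here is the signal of such an oligonucleotide of 60 bases and not of the whole transcript. No other probe on the array had the same sequence as any of them.
MARCO: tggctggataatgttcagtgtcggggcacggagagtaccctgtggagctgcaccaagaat
STAB1: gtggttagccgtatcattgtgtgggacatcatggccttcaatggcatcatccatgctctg
COLEC12, bases 1 to 30: gtatggaacactccaatcagaaaaaggtta

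The place of each probe within its gene was not given in the sources used here. In the RefSeq annotation of GRCh38.p14 MARCO lies on chromosome 2 from 118942194 to 118994660, COLEC12 on chromosome 18 from 316737 to 500701 and STAB1 on chromosome 3 from 52495338 to 52524495. MSR1 lies on chromosome 8, CD36 on chromosome 7, MRC1 on chromosome 10, and OLR1, CD163 and SCARB1 on chromosome 12. All are protein-coding.

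**Figure D1:**
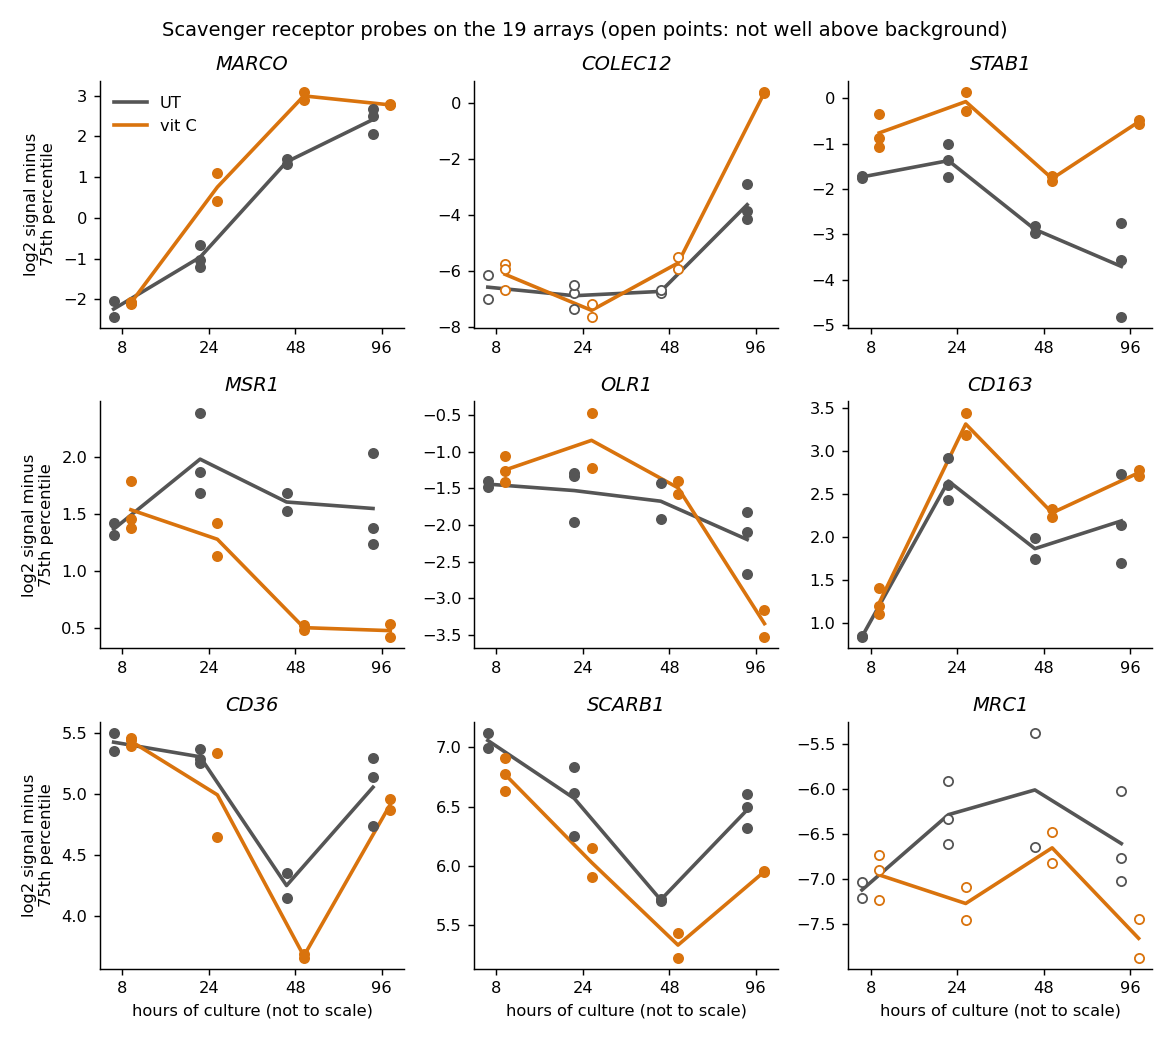
Levels of the brightest probe of each of the 9 genes on the 19 arrays (vertical axis, log2 signal minus the 75th percentile of the array) against hours of culture (horizontal axis, not to scale). Each point is an array, grey for UT and orange for vit C, lines join group means, and open points were not well above background. MARCO climbs in both arms and is ahead with vit C at 24 and 48 h, COLEC12 rises from background at 96 h, and MSR1 with vit C lies below UT at 24 h and later.

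A gene was called where a probe changed by at least 1 on the log2 scale with a Benjamini-Hochberg q of at most 0.05 in limma. Between vit C-treated and UT cells MARCO was called at 24 h, MARCO and MSR1 at 48 h, and COLEC12, STAB1, MSR1 and OLR1 at 96 h. In such bulk RNA a change in the share of cells that carry a transcript and a change in its amount per cell cannot be told apart. At 8 h, 7 of the 9 could be tested, because MSR1 and STAB1 each had probes that moved in opposite directions. None of these 7 was called in limma and none had an unadjusted p under 0.05, while 0.549% of all genes tested were called, 0.322% higher and 0.227% lower. That 8 h split was 81 genes higher and 57 lower, but 181 and 16 under normexp background correction. With the slide as a fixed block in the fit 9 genes were called at 8 h. At 24 h 1 of 9 members was called, higher, against 1.65% of all genes, 0.835% higher and 0.820% lower. At 48 h 1 of 7 members tested was higher and 1 lower, against 3.64% of all genes, 2.08% higher and 1.56% lower. Leaving out an array of a group of 3 lowered these totals each time. It gave 17 to 72 genes at 8 h in place of 138, and 226 to 270 at 24 h in place of 432. Groups of 2, as at 48 h, were left with 1 array, and those totals fell too. Why they fell was not tested. Without vit C replicate 2 at 48 h, 120 genes were higher and 222 lower there, in place of 530 and 396. At 96 h COLEC12 and STAB1 were higher and MSR1 and OLR1 lower with vit C, 4 of 8 members tested, against 12.8% of all genes, 2.72% higher and 10.1% lower. That background at 96 h moved with the scaling, with 716 genes higher and 2659 lower here but 734 higher and 708 lower when the percentile was taken over probes well above background on all arrays. The methods' t-test with Benjamini-Hochberg adjustment, which estimates each spread from the arrays of 2 groups alone, called no member at 8, 24, 48 or 96 h, and 12, 0, 3 and 0 genes of any kind. The median vit C effect over the 9 genes was 0.17, -0.31, 0.18 and -0.14 on the log2 scale at the 4 times, against -0.03, -0.18, 0.00 and -0.14 over all probes. These medians include MRC1 and, before 96 h, COLEC12, whose signals were near background. At 24 h 4 of the 9 read higher and 5 lower, with COLEC12 and MRC1 among the lower. At 96 h the split was again 4 and 5, with MRC1 among the lower, so the sign of these 2 medians rests on such signals.

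The layout of the arrays bears on each vit C effect. UT and vit C-treated cells of the same time point never shared a slide, so no vit C effect could be taken within a slide. UT cells at 8, 24 and 48 h were all on 1 slide, and vit C-treated cells at 8 and 24 h on another, which also held 2 of the 3 UT arrays at 96 h. These bridge arrays allow a fit with the slide as a block at 8, 24 and 48 h. The slide of both vit C arrays at 96 h held no other array of the series and had a scan day of its own, with 75th percentiles of 787.6 and 903.5 against 290.2 to 625.6 on the other 17 arrays, so at 96 h slide and vit C cannot be told apart. UT replicate 3 at 96 h had a mean correlation of 0.937 with its own group over probes well above background everywhere, the lowest of the 19 arrays, and values without it are given beside the 96 h results below where they change a call. Without it COLEC12, STAB1, SCARB1 and MRC1 were called at 96 h, the last from signals near background, and MSR1 and OLR1 were not, with 5992 genes called in all in place of 3375.

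**Figure D2:**
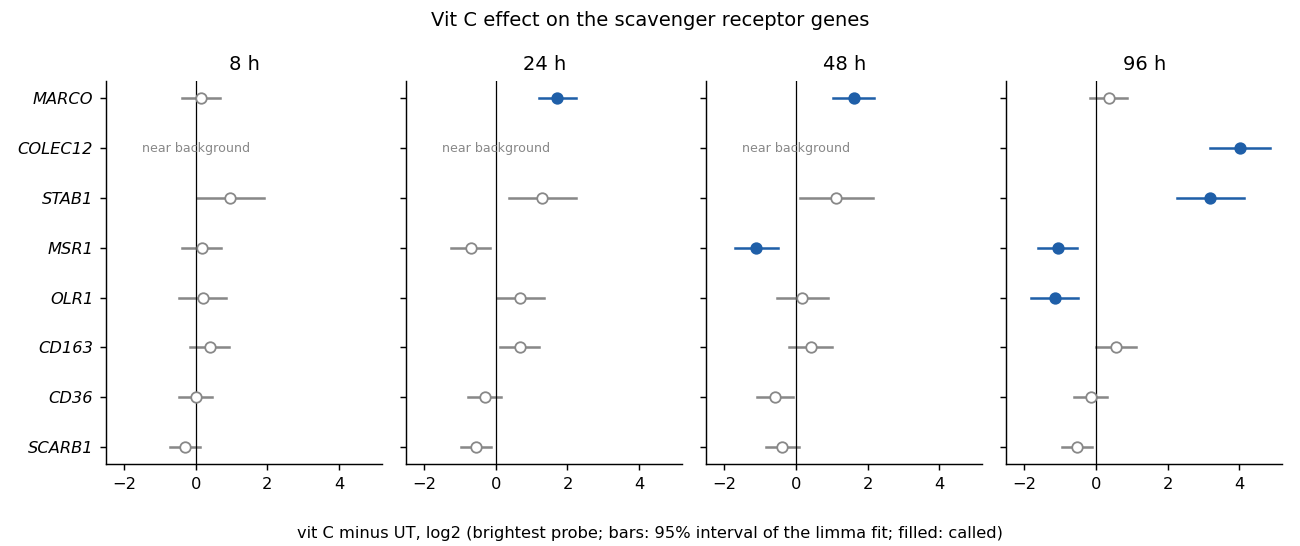
Vit C effect on the brightest probe of 8 genes at 8, 24, 48 and 96 h (horizontal axis, vit C minus UT on the log2 scale). Points are limma estimates, bars are 95% intervals, and filled blue points were called. COLEC12 was near background in both arms before 96 h and has no value there. Among called points, MARCO stands to the right of 0 at 24 and 48 h, and COLEC12 and STAB1 at 96 h. The STAB1 intervals lie to the right of 0 at 8, 24 and 48 h too, without a call.

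MARCO, which binds bacteria and inhaled particles, rose steeply with time in culture and rose sooner with vit C. In UT cells its level was -2.05 and -2.43 at 8 h, -1.20, -0.66 and -1.03 at 24 h, 1.43 and 1.32 at 48 h, and 2.51, 2.67 and 2.07 at 96 h. In vit C-treated cells it was -2.06, -2.12 and -2.08 at 8 h, 1.09 and 0.42 at 24 h, 2.91 and 3.09 at 48 h, and 2.76 and 2.79 at 96 h. The arms overlapped at 8 h, and at 24, 48 and 96 h every vit C array was above every UT array. The rise between 8 and 96 h was 25.2-fold in UT cells (log2 4.65, SE 0.24, limma q = 2.61e-08) and 29.0-fold with vit C (log2 4.86, SE 0.24, limma q = 8.97e-09).

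The lead of vit C-treated cells in MARCO was 3.30-fold at 24 h (log2 1.72, SE 0.24, limma q = 0.0035) and 3.08-fold at 48 h (log2 1.62, SE 0.27, limma q = 0.00486). At 8 h the effect was 0.15 on the log2 scale (95% interval -0.37 to 0.67) and at 96 h it was 0.36 (95% interval -0.16 to 0.88), or 0.18 without UT replicate 3, and neither passed the test. In the order of group means, vit C at 48 h was highest, followed by vit C at 96 h, UT at 96 h, UT at 48 h, vit C at 24 h and UT at 24 h, each apart from the next, and the 8 h groups overlapped at the bottom. The F test of whether the 4 vit C effects differed gave q = 0.0544 for MARCO in limma, just outside the threshold, and it passed under 4 of the other settings. With the slide as a block neither effect was called, at 1.87 for 24 h (limma q = 0.188) and 1.67 for 48 h (limma q = 0.218). Without vit C replicate 2 at 48 h, the only array on its slide, the 48 h effect was 1.53 with limma q = 0.0503, and without UT replicate 2 at 48 h it was 1.56 with limma q = 0.0544.

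COLEC12, a collectin with a membrane anchor that binds oxidised LDL and sugar-bearing ligands, was seen only at 96 h and was far higher there with vit C. On the 14 arrays of 8, 24 and 48 h its level lay between -7.63 and -5.51 and was not well above background on any. At 96 h UT cells reached -4.15, -3.86 and -2.88, and vit C-treated cells reached 0.39 and 0.37. The 2 vit C arrays lay within 0.02 of each other and well above the 3 UT arrays. The difference was 16.1-fold (log2 4.01, SE 0.39, limma q = 6.7e-05).

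Against 8 h, where COLEC12 gives only an upper bound, its signal at 96 h was at least 3.02-fold higher in UT cells (limma q = 7.91e-05) and at least 40.0-fold higher with vit C (limma q = 3.76e-08). Under normexp the fitted rise in UT cells was 0.71 on the log2 scale, short of the fold threshold. COLEC12 was the 1 gene of the 9 whose vit C effect differed between the 4 time points by the F test in this fit (limma q = 0.00567), against 1.36% of all genes. Without UT replicate 3 at 96 h the vit C effect was 4.38. Over the 5 fits that each left out an array of the 96 h groups it lay between 3.75 and 4.38, and it was called in each. Normexp background correction, with an offset of 50 that draws dim values together, gave 2.77.

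STAB1, which is also carried by sinusoidal endothelium, fell with time in UT cells, and the arms were furthest apart at 96 h. In UT cells the level was -1.72 and -1.75 at 8 h, -1.74, -1.37 and -1.02 at 24 h, -2.82 and -2.97 at 48 h, and -3.57, -2.74 and -4.82 at 96 h. In vit C-treated cells it was -1.07, -0.87 and -0.35 at 8 h, 0.13 and -0.28 at 24 h, -1.83 and -1.71 at 48 h, and -0.47 and -0.57 at 96 h. Every vit C array was above every UT array of its own time at all 4 times, a pattern that the brightest probes of 39.1%, 30.2%, 50.8% and 36.9% of all genes shared at a single time, in 1 direction or the other. The fall in UT cells between 8 and 96 h was 3.93-fold (log2 -1.98, SE 0.43, limma q = 0.00433), or -1.42 without UT replicate 3 at 96 h (limma q = 0.00441). With the slide as a fixed block it was -1.83 and not called (limma q = 0.0853). With vit C the change was 0.24 (95% interval -0.68 to 1.17), which was not called. These 2 changes were not set against each other beyond the F test of the vit C effects, which gave limma q = 0.163 for STAB1.

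At 96 h STAB1 was 9.14-fold higher with vit C (log2 3.19, SE 0.43, limma q = 0.000713). At 24 and 48 h the effects were 1.30 (limma q = 0.148) and 1.12 (limma q = 0.247), and at 8 h the effect was 0.97 on the brighter probe (limma, unadjusted p = 0.0413) while the dimmer probe read -0.10, so the gene was removed from the test. The vit C effect averaged over the 4 times was called for STAB1 (1.65, SE 0.22, limma q = 0.000336) and for COLEC12 (1.24, SE 0.20, limma q = 0.00123), both higher, 2 of the 9 genes against 3.46% of all genes, 2.05% higher and 1.41% lower, although 3 of the 4 COLEC12 effects in that average are of signals near background. Under normexp background correction neither average was called, and 241 genes of any kind were, in place of 912. UT replicate 3 at 96 h was the lowest STAB1 array of all, and without it the 96 h effect was 2.64 (limma q = 0.000335). On the UT arrays of 96 h the dimmer STAB1 probe was near background throughout, and it gave at least 1.37-fold (log2 1.02, limma q = 0.229). Under normexp correction the brighter probe gave 1.90 but the 2 probes moved in opposite directions, and STAB1 was not called.

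MSR1, the founding class A receptor for modified LDL, was lower with vit C from 48 h on. Its brightest probe read 1.31 and 1.42 in UT cells at 8 h, 2.39, 1.86 and 1.69 at 24 h, 1.52 and 1.69 at 48 h, and 1.38, 1.23 and 2.03 at 96 h. With vit C it read 1.45, 1.78 and 1.37 at 8 h, 1.13 and 1.42 at 24 h, 0.48 and 0.53 at 48 h, and 0.42 and 0.53 at 96 h. The 4 late vit C arrays were below every other array of the series. The vit C effect was -0.70 at 24 h (limma q = 0.188), -1.10 at 48 h (SE 0.28, limma q = 0.0449) and -1.07 at 96 h (SE 0.26, limma q = 0.0256), or 2.14-fold and 2.10-fold lower at the 2 later times.

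The brightest MSR1 probe was close to both thresholds, while the probe of the other splice form, described next, gave -1.22 at 48 h (SE 0.19, limma q = 0.00381) and -0.74 at 96 h (limma q = 0.024). Leaving out any 1 of the 4 arrays at 48 h gave -1.18 to -1.02 on the brightest probe with limma q of 0.159 or more, but MSR1 was still called, on the other form's probe, in 3 of the 4 fits. Without UT replicate 1 at 48 h that probe read -1.07 with limma q = 0.0502. Without UT replicate 3 at 96 h the 96 h effect was -0.83 (limma q = 0.0181), short of the fold threshold, and without vit C replicate 1 or 2 the q was 0.0934 or 0.147. The 96 h call also ended with the percentile over detected probes (-0.98, limma q = 0.0307), with gene means of probes (-0.93, limma q = 0.0124), under normexp background correction (-0.87, limma q = 0.00771) and with the replicate block (-1.07, limma q = 0.0569). With the slide as a block the 48 h effect was -1.38 (limma q = 0.397).

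The 3 MSR1 probes came from 2 transcripts and parted with time. Splice forms of MSR1 differ at the end of the protein, where type I carries a cysteine-rich domain that type II lacks. The brightest probe and the dimmer 1 of its pair were designed on NM_138715, the type I form, and the third on NM_002445, the type II form, although whether a probe reads 1 form alone was not settled by the files. Between 8 and 96 h in vit C-treated cells the NM_002445 probe of MSR1 fell by 2.25 on the log2 scale (limma q = 3.92e-07), against -1.06 and -1.14 for the NM_138715 probes. In UT cells it read -1.53 where the NM_138715 probes read 0.18 and 0.19, and these opposite signs removed MSR1 from that test. Without UT replicate 3 at 96 h the MSR1 probes of the first form read -0.06 and -0.07, the signs no longer opposed, and the gene was called lower in UT cells on the NM_002445 probe (-1.496, limma q = 4.1e-05).

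Within each array the brightest NM_138715 probe minus the NM_002445 probe was 2.94 and 2.76 in UT cells at 8 h and 4.33, 4.25 and 5.11 at 96 h. With vit C it was 2.95, 3.28 and 2.87 at 8 h and 4.23 and 4.23 at 96 h. The 8 h and 96 h values did not overlap in either arm, and the exact 2-sided permutation p was 0.1 for each arm, the smallest that groups of this size allow. Between the arms the gap differed by 0.18, 0.08, 0.12 and -0.33 at the 4 times (exact permutation p = 0.5, 0.8, 1 and 0.5). No vit C difference in the gap was detectable with these arrays, and groups of this size cannot give a p below 0.1. A gap between probes shows unequal change and not the level of either form.

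**Figure D3:**
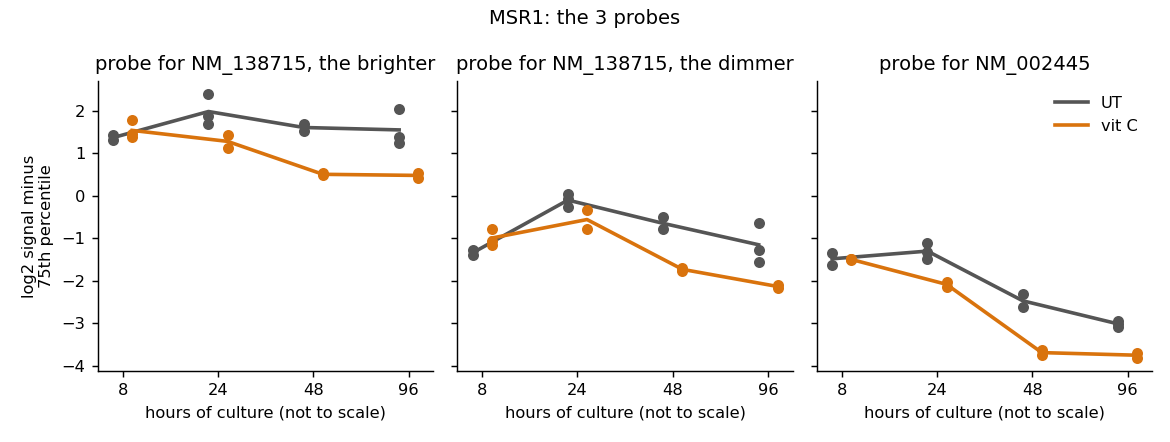
Levels of the 3 MSR1 probes on the 19 arrays (vertical axis, log2 signal minus the 75th percentile of the array) against hours of culture (not to scale), grey for UT and orange for vit C, with lines through group means. The vit C arrays at 48 and 96 h are the lower ones on all 3 probes, and the NM_002445 probe falls in UT cells as well, from a mean near -1.48 at 8 h to -3.01 at 96 h.

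OLR1, the lectin-like receptor for oxidised LDL, changed with vit C at 96 h. In UT cells its level was -1.40 and -1.48 at 8 h, -1.34, -1.29 and -1.96 at 24 h, -1.92 and -1.43 at 48 h, and -2.10, -2.67 and -1.83 at 96 h. With vit C it was -1.27, -1.06 and -1.42 at 8 h, -1.22 and -0.47 at 24 h, -1.40 and -1.58 at 48 h, and -3.16 and -3.53 at 96 h. The 2 vit C arrays at 96 h were the lowest of the series. The 96 h effect was -1.15 (SE 0.30, limma q = 0.0334), a 2.22-fold lower signal, while the effects at 8, 24 and 48 h were 0.19, 0.69 and 0.18 with q of 0.268 or more. Under normexp background correction, with the replicate block and by the methods' t-test OLR1 was not called at 96 h. Without UT replicate 3 the 96 h effect was -0.96 (limma q = 0.0359), short of the fold threshold, and leaving out either vit C array or UT replicate 1 also ended the call, at limma q of 0.0784 to 0.271.

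CD163, the haemoglobin receptor, was higher at 96 h than at 8 h in both arms, with a peak at 24 h. It was not called for vit C at any time. Its level was 0.85 and 0.84 in UT cells at 8 h and 2.14, 1.70 and 2.73 at 96 h, with a peak of 2.92, 2.43 and 2.61 at 24 h. With vit C it was 1.11, 1.41 and 1.20 at 8 h, 3.19 and 3.45 at 24 h, and 2.71 and 2.79 at 96 h. At 48 h CD163 read 1.75 to 1.99 in UT cells and 2.24 to 2.33 with vit C, below the 24 h arrays of each arm. The 2.54-fold rise between 8 and 96 h in UT cells (log2 1.35, limma q = 0.00157) and the 2.85-fold rise with vit C (log2 1.51, limma q = 0.000529) were both called. The vit C effects were all above 0, at 0.39, 0.66, 0.42 and 0.56, with q from 0.162 to 0.578, and their average was 0.51 (95% interval 0.23 to 0.79, limma q = 0.0213), short of the fold threshold of 1. Without UT replicate 3 the 96 h effect on CD163 was 0.83 (limma q = 0.0138), also short of it.

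The class B receptors CD36 and SCARB1 had no vit C call with all arrays in the fit. CD36, which also takes up long-chain fatty acids, lay between 3.66 and 5.50 on all arrays and dipped at 48 h, to 4.15 and 4.35 in UT cells and 3.69 and 3.66 with vit C. Its vit C effect was -0.31 at 24 h (95% interval -0.77 to 0.15) and -0.58 at 48 h (95% interval -1.08 to -0.07, limma q = 0.225). At 96 h its probes read -0.14 and 0.29, and the gene was removed. SCARB1, which takes cholesterol esters from HDL, had its lowest values at 48 h too, 5.73 and 5.70 in UT cells and 5.23 and 5.44 with vit C, against 6.63 to 7.12 at 8 h. Its vit C effects were -0.29, -0.54, -0.38 and -0.52 on the brightest probe, and the average was -0.43 (95% interval -0.64 to -0.22, limma q = 0.0118), short of the fold threshold. At 48 h the dimmer SCARB1 probes read 0.12 and -0.17, and these opposite signs removed the gene from that test. Between 8 and 96 h SCARB1 was called lower with vit C on its 2 dimmer probes (-1.66 and -1.27, limma q = 0.0138 and 0.0118), while its brightest probe read -0.82. UT replicate 3 at 96 h had the lowest UT values on these 2 dimmer probes, and without it SCARB1 was called lower with vit C at 96 h on both (-1.29, limma q = 0.00985, and -1.12, limma q = 0.0071), while the brightest probe read -0.45 (limma q = 0.102).

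MRC1 was not well above background on any of the 19 arrays with either of its 2 probes, at levels between -7.87 and -5.38. No fold is given for it. A level of MRC1 mRNA below what these probes detect is not excluded.

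Over time, 4 of 8 members tested were called between 8 and 96 h in UT cells (MARCO, COLEC12 and CD163 higher and STAB1 lower), against 16.1% of all genes, 8.90% higher and 7.18% lower. With vit C 6 of 9 were called over the same interval (MARCO, COLEC12 and CD163 higher and MSR1, OLR1 and SCARB1 lower), against 28.9%, 10.9% higher and 18.0% lower. The vit C arrays of 8 and 96 h shared no slide and no scan day, so in that comparison time and slide cannot be told apart. The arrays of 8 and 96 h did not overlap on the brightest probe for 8 of the 9 genes in UT cells, all but MSR1, against 36.9% of all genes, and for 8 of the 9 with vit C, all but STAB1, against 67.5%, MRC1 being near background in both arms. The F test over the 4 times was passed by 7 of the 9 genes in UT cells, against 27.4% of all genes, and by 8 with vit C, against 42.6%. Among the latter, MRC1 passed on a probe near background. In UT cells MSR1 passed on its 2 dimmer probes only (limma q = 0.00477 and 6.08e-06), and its brightest probe had limma q = 0.29. STAB1 passed in UT cells (limma q = 0.0017) and with vit C had limma q = 0.054, and OLR1 passed with vit C (limma q = 0.000212) and in UT cells had limma q = 0.193. Whether the time courses differ between the arms is what the F test of the vit C effects asks, and its limma q was 0.136 for OLR1.

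**Figure D4:**
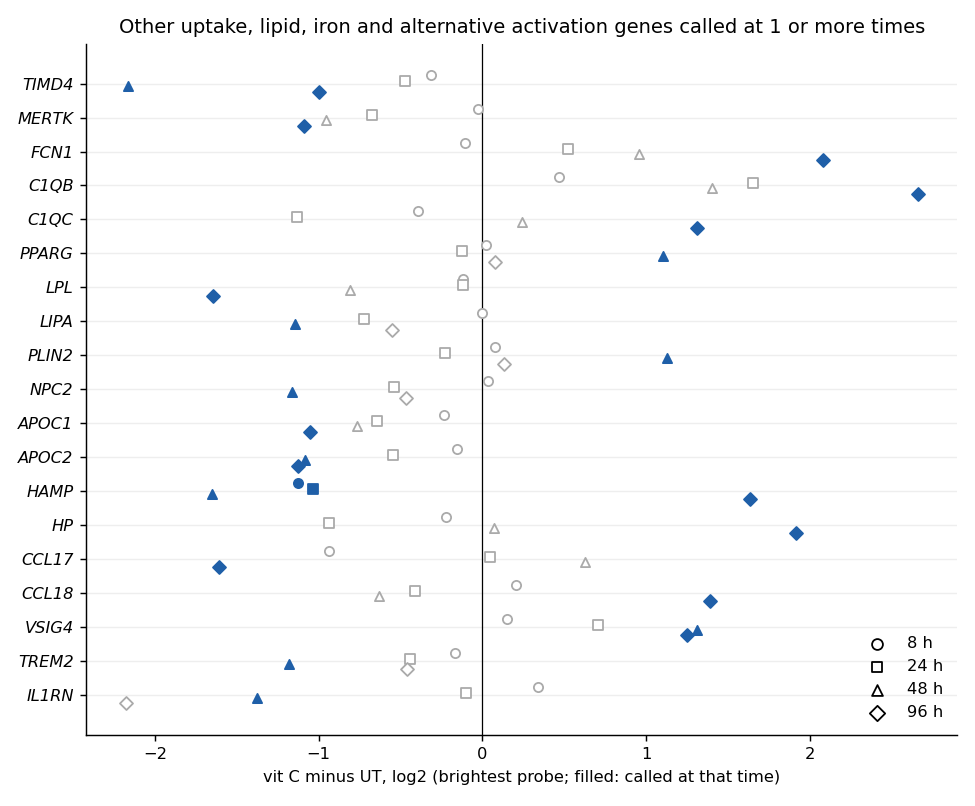
Vit C effect (horizontal axis, vit C minus UT on the log2 scale, brightest probe) at 8, 24, 48 and 96 h for 19 other genes of the uptake, collectin, lipid, iron and alternative activation lists. The shape of a point gives the time, and filled points were called. The complement genes C1QB and C1QC and the ficolin gene FCN1 lie to the right at 96 h. The apolipoprotein genes APOC1 and APOC2 lie to the left there, and HAMP lies on opposite sides at 48 and 96 h.

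Other receptors for uptake were mostly called at no time. Of 22 further scavenger and clearance receptors, 21 were on the array and 20 were above background in at least 1 group. None of the 21 was called at 8 or 24 h, and 3 were called at 48 h, HAVCR1 among them from signals near background, and 2 at 96 h, all lower with vit C, where 1.56% and 10.1% of all genes were called lower. At 96 h the share is near that of all genes. TIMD4 and MERTK, which bind phosphatidylserine on dying cells directly and through bridging proteins, were those called at 96 h, TIMD4 just past the fold threshold (limma q = 0.0166) and MERTK at -1.09 (limma q = 0.0376, and -0.80 without UT replicate 3, not called), and TIMD4 was also lower at 48 h (-2.16, limma q = 0.00041), with MERTK called there on a dimmer probe only. The median vit C effect of the 21 at 96 h was 0.08 on the log2 scale, against -0.14 over all probes.

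Among the soluble relatives of COLEC12 the genes called were higher with vit C at 96 h. Of 11 collectin, ficolin and C1q genes 8 were above background in at least 1 group, and 3 of the 11 were called at 96 h, all higher, against 2.72% of all genes. The median effect over the 11 was -0.07, against -0.14 over all probes. Over the 8 above background it was 0.87, against -0.02 over all probes above background in at least 1 group. A gene can pass that filter through the group where it is high. C1QB, a chain of the complement starter C1q, was 2.66 higher (limma q = 0.00207), C1QC was 1.31 higher (limma q = 0.0457, and 0.066 without UT replicate 3) and FCN1, a sugar-binding ficolin, was 2.08 higher (limma q = 0.000832). At 8, 24 and 48 h none was called. The collectin genes COLEC10 and MBL2 were near background on all 19 arrays.

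Genes that handle the cargo of these receptors moved in both directions. Of 21 lipoprotein and cholesterol genes, all above background, 2 were higher and 3 lower at 48 h, against 2.08% and 1.56% of all genes, and 3 were lower at 96 h, near the 10.1% of all genes called lower there. PPARG, a lipid-sensing nuclear receptor, and PLIN2, the lipid droplet coat, were higher at 48 h (1.104, limma q = 0.029, and 1.13, limma q = 0.0126). LIPA and NPC2, which free and export cholesterol in the lysosome, were lower at 48 h (-1.15, limma q = 0.014, and -1.16, limma q = 0.0041), as was APOC2 (-1.09, limma q = 0.00701). At 96 h LPL, the lipase that APOC2 activates, was lower (-1.64, limma q = 0.000908), with APOC1 (-1.05, limma q = 0.00184) and APOC2 (-1.12, limma q = 0.00173).

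Of 10 haem and iron genes on the array, 9 of them above background in at least 1 group, 1 was called lower at 8, at 24 and at 48 h, against 0.227%, 0.820% and 1.56% of all genes, and 2 higher at 96 h, against 2.72%. HAMP, the iron hormone hepcidin, was lower with vit C at 8 h (-1.13, limma q = 0.0192), 24 h (-1.03, limma q = 0.0116) and 48 h (-1.65, limma q = 0.000657) and higher at 96 h (1.64, limma q = 0.000137). HP, haptoglobin, whose complex with haemoglobin is the ligand of CD163, was higher at 96 h (1.91, limma q = 0.000637). HMOX1, which breaks down haem, was called at none of the 4 times.

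Of 16 regulators of such receptor genes, 15 were above background in at least 1 group. KLF4 was the only 1 called at 24 h (-1.71, limma q = 0.0212) and IRF8 the only 1 of these called at 96 h (1.27, limma q = 0.0348), with none at 8 or 48 h. With IRF4, called lower at 96 h from signals near background, this was 1 of 16 at 24 h and 2 of 16 at 96 h, against 1.65% and 12.8% of all genes. Of 20 genes of alternatively activated macrophages, 16 were above background in at least 1 group. Of all 20, 1 was higher and 2 lower at 48 h and 3 higher and 1 lower at 96 h, where 2.08% of all genes were higher and 1.56% lower, and 2.72% and 10.1%. VSIG4, a complement receptor, was higher at 48 h (1.31, limma q = 0.00183) and at 96 h (1.25, limma q = 0.000623), and CCL17 was lower at 96 h (-1.61, limma q = 0.0016). CCL18, a chemokine of alternatively activated macrophages, was well above background on the 2 vit C arrays of 96 h and on no other, at least 1.14-fold above UT cells (limma q = 0.04), and CCL13 was called higher at 96 h on a dimmer probe, though not without UT replicate 3. Leaving out that array added CD5L, MRC2, TFEC, MS4A6A and ITGAX to the genes of these lists called at 96 h. TREM2, a lipid receptor, and IL1RN, which blocks interleukin 1, were the genes lower at 48 h (-1.18, limma q = 0.0116, and -1.37, limma q = 0.00508).

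Markers of macrophages were present throughout, with all 12 of the list above background in at least 1 group. Of these, ITGAM was called lower at 48 h (-1.17, limma q = 0.00322) and LYZ higher at 96 h (1.17, limma q = 0.0422), against 1.56% and 2.72% of all genes, and their part in the results was not tested. The log2 of their summed signals, minus the 75th percentile of the array, was 9.33 to 9.42 in UT cells and 9.39 to 9.51 in vit C-treated cells at 96 h. Of 9 genes that mark fibroblasts, 7 were above background in at least 1 group, and their part in the COLEC12 and STAB1 results was not tested. PDGFRB was called higher with vit C at 24 h (1.75, limma q = 0.000885), 1 of 9 against 0.835% of all genes, and at 48 h DCN (2.34, limma q = 0.00833) and LUM (at least 2.28-fold, limma q = 0.000123), 2 of 9 against 2.08%. At 96 h 3 of 9 were called higher and 2 lower, COL3A1 among them from signals near background, against 2.72% and 10.1% of all genes. There DCN (2.48, limma q = 0.0019) and PDGFRB (1.30, limma q = 0.0023) were higher with vit C, LUM was at least 6.17-fold higher (limma q = 1.1e-06) with UT cells near background, and FAP was lower (-1.16, limma q = 0.0172, and -0.97 without UT replicate 3, not called). The summed level of the 9 was 3.31 to 3.76 in UT cells and 3.35 to 3.46 with vit C at 96 h, and the collagen gene COL1A2 was near background on all 19 arrays. COL1A1, another collagen gene, was at least 3.18-fold brighter with vit C at 48 h (limma q = 0.0939). At 96 h this bound was 1.32-fold (limma q = 0.379), and COL1A1 was not called at either time. Of 9 endothelial markers 7 were above background in at least 1 group, and CLDN5 was called higher at 48 h (1.35, limma q = 0.00701), 1 of 9 against 2.08% of all genes. At 96 h 2 of 9 were lower, against 10.1%, ESAM on a dimmer probe (its brightest read -0.98, limma q = 0.0361) and EMCN from signals near background, and their part in the STAB1 result was not tested. Endothelial markers summed to 5.39 to 5.95 in UT cells and 4.68 to 4.75 with vit C at 96 h, and CDH5 and EMCN were near background on all 19 arrays. T and B cell markers summed to 0.88 to 2.02 in UT cells and 0.78 to 0.99 with vit C at 96 h, and epithelial markers to 0.69 to 1.97 and 1.55 to 1.57.

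The genes whose probes followed each receptor most closely over the 19 arrays were found among probes above background in at least 1 group whose group means had an SD of at least 0.5. They are a description of 19 arrays that share time points, slides and 1 cell line. For MARCO they were SLA (Pearson r = 0.98), FADS1 (0.98) and RAD54L (0.97). For COLEC12 they were SLAMF9 (0.97), CRH (0.97) and P2RY14 (0.96), and for CD36 PPP1R3A (0.96), EDNRB (0.96) and P2RY5 (0.96). COLEC12 was well above background on 5 of the 19 arrays only, those of 96 h, so its r values set these against arrays near background. SCARB1 was followed by QDPR (0.95), MSR1 by IL27RA (0.90) and ITGAM (0.89), CD163 by MPZL1 (0.88) and STAB1 by TANC2 (0.90). OLR1 was followed by LOC374443 (0.93) and by HDAC9 (0.91).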

How the data were processed

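THP-1 cells were measured on 19 Agilent one-colour arrays. Samples whose RNA was of lower quality had been dropped by the authors. The authors extracted spot intensities with Agilent Feature Extraction. The file headers give version 10.5.1.1 for the placement of the grid, and the methods name a later version for the software. The processed signal in the deposited scanner files is detrended but not normalized between arrays. For the series matrix the authors deposited log2 values shifted to the 75th percentile, used here as an alternative. Here 51538 non-control spots were averaged on the log2 scale into 50238 probes, taken less each array's 75th percentile. Intensity limits the precision, and 57.5% to 72.8% of probes per array were well above background.

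A model of 8 group means was fitted in limma 3.58.1 (R 4.3.3), 2-sided, with Benjamini-Hochberg q over all probes. Genes whose probes moved in opposite directions were removed first, as in the methods. Where every array of 1 group was near background, a fold is a lower bound against the signal of the dimmest probes well above background. The script was tested on simulated data. Figures used Python 3.11.15 and matplotlib 3.10.9.

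The members, gene lists and tests were chosen with earlier results of these data known, and the study names MARCO, MSR1 and COLEC12 among its results on these arrays, so their direction is no independent evidence. The study reports COLEC12 as raised at 48 h, where here it was not well above background on any array of either arm. Genes of other lists are named where called by a probe above background, at most 4 per list and time, and the 3 nearest patterns were looked up per member. Alternatives were the methods' t-test, quantile normalization, the percentile over detected probes, normexp, dim probes left out, opposing probes kept, gene means, slide as fixed or random block, the replicate block, the series matrix and each array left out.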

Additional observations from a re-analysis of the deposited data

Results flagged for a closer look

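The vit C effect on COLEC12 differed between the 4 time points, with q = 0.00567 in limma's F test over the 19 arrays. Before 96 h the gene was not well above background in either arm, and at 96 h it was 4.01 higher with vit C on the log2 scale, above UT cells on 2 of 2 vit C arrays. Both of these arrays lay on a slide of their own, so the slide and vit C cannot be told apart. With groups of 2 or 3 arrays, single arrays were not tested for standing apart.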

How the results depend on the processing

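Each alternative changed 1 choice at a time, and for the changes below the cause was not tested. With opposing probes kept, with the slide as a random block and with the series matrix values, every count of members called stayed within 1.5 times. Under the methods' t-test, run for vit C against UT and for 96 h against 8 h, 0 members were called at 24 h, 0 at 48 h, 0 at 96 h and 1 (MARCO) in UT cells over time, with 0, 3, 0 and 285 genes of any kind, and 12 at 8 h. Members whose vit C effects differed between times numbered 2 under quantile normalization, 2 with dim probes left out, 2 with gene means (COLEC12 and MARCO each time) and 4 under normexp (MSR1 and OLR1 too). Normexp called 1 member at 96 h, COLEC12, and 0 for the average effect. With the slide as a fixed block 0 were called at 24 h and 0 at 48 h, and 20 and 138 genes of any kind in place of 432 and 926, and STAB1 was no longer called in UT cells over time; the layout gives no such fit at 96 h, for the average, for vit C over time or for the F test of effects.

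Correlations of same-numbered deviations from the group means lay between -0.11 and 0.09, so no effect shared by replicate number was seen. With groups of 2 or 3 arrays this cannot show whether flasks were paired. With the replicate block 2 members (COLEC12 and STAB1) were called at 96 h, and 1203 genes in place of 3375. All genes called at 96 h numbered 1000 under quantile normalization, 1442 with the percentile over detected probes, 1087 with dim probes left out and 829 under normexp. Leaving out 1 array gave 1 to 2 members at 48 h, 2 to 4 at 96 h and 1 to 3 for the F test of effects, and 480 to 5992 genes at 96 h. An equal count can hide other members: without UT replicate 3 the 4 at 96 h were COLEC12, MRC1, SCARB1 and STAB1.

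Signs turned only in effects that were not called. CD36 at 96 h read 0.094 under quantile normalization and 0.074 with gene means, and at 8 h -0.0082 under normexp and -0.022 with the replicate block. MSR1 at 8 h read -0.0052 under normexp and -0.086 with the slide block, and its change over time in UT cells -0.0031 under normexp and -0.39 with gene means. Leaving out 1 array, ranges that crossed 0 were -0.035 to 0.34 for MARCO and -0.066 to 0.082 for CD36 at 8 h, -0.66 to 0.034 for CD36 at 24 h, -0.065 to 0.43 for OLR1 at 48 h and -0.060 to 0.34 for MSR1 over time in UT cells.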
